A study of Mus musculus with 6 samples.

Results

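The 7 genes described here encode channels and sodium pump subunits of the sarcolemma, the surface membrane of a muscle fibre: Scn4a, Clcn1, Kcnj11, Kcnj2, Kcna7, Atp1b1 and Fxyd1. They were chosen by name and all 7 were found among the 22036 genes of the count table. Total RNA of the quadriceps femoris, the main extensor of the knee, was read as nanopore cDNA from Prr14-WT (WT) and Prr14-KO (knockout, KO) mice, with 3 libraries of each genotype. The WT libraries are titled W3, W4 and W8 and the KO libraries K4, K5 and K7, and they are called replicates 1 to 3 of their genotype in that order. The labels name no treatment, and the sources used here do not give the strain, age or sex of the mice or the design of the knockout allele. PRR14 links heterochromatin to the nuclear lamina.

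A muscle fibre contracts after an action potential has run along the sarcolemma and into its tubules. Voltage-gated sodium channels carry the upstroke, potassium channels and a large resting chloride conductance hold and restore the resting potential, and the sodium pump puts back the sodium and potassium that each impulse moves. Inherited faults of the sodium, chloride and inward rectifier potassium channels cause the myotonias and periodic paralyses, in which fibres fire too readily or not at all.

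The libraries held between 1436099 and 1712975 counts each, and levels are given as CPM, the count of a gene divided by its library's TMM-scaled size and put on a common scale. At this depth 3 counts stood for 1.72 to 2.19 CPM. Prr14 itself had 9, 11 and 12 counts in WT and 4, 10 and 3 in KO, so KO replicate 2 was read for this gene about as often as WT. The summed myofibre markers, such as Acta1 and Ckm, ran from 112316 to 142122 CPM in WT and from 88344 to 97297 CPM in KO without overlap, and those of fast fibres from 180042 to 228286 and from 123853 to 141532 CPM. The summed markers of slow fibres, nerve and Schwann cells, endothelium, smooth muscle and pericytes, fibroblasts, leukocytes, adipocytes and red blood cells overlapped between the genotypes, and no marker of any list was at 0 in all 6 libraries. In the test described below, 4 of 10 myofibre markers and 6 of 12 fast-fibre markers passed as lower, against 3.28% of all tested genes. Causes of the lower sums, among them fewer fibres and less RNA per fibre, cannot be told apart in whole muscle. The part of the myofibre and fast-fibre shift in the values below was not tested. The labels do not say that each library is a separate mouse, so the spread behind each p-value may be partly technical.

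The promoters of Kcnj2 and Clcn1 are shown because Kcnj2 carried the one change in level that passed the test, and Clcn1 alone of the 6 members with a promoter entry held a match to the MEF2 consensus, the site of the transcription factor family named in the series title. The sequences are RefSeq's on GRCm38.p6, on the strand of the gene, and both genes lie on the plus strand. In Clcn1 (chr6:42286609-42286668) the capitals mark the MEF2 match, 51 to 42 bases before the annotated start. An E-box, CANNTG, upstream of that match is left in lower case. In Kcnj2 (chr11:111066044-111066163, the 120 bases before the start) the capitals mark an E-box.
Clcn1: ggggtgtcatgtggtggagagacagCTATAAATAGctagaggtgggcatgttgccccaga
Kcnj2: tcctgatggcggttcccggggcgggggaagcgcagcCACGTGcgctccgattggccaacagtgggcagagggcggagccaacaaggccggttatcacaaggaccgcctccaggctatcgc
The search covered both strands of windows from 250 bases before to 50 after the start, and 3.19% of 32851 such windows held the MEF2 consensus. The Clcn1 match overlaps a TATAAA box, a motif found in 13.6% of windows. An E-box, found in 72.3% of windows, lay in those of Clcn1, Kcnj2 and Kcna7, and the CArG box (1.63% of windows) in that of no member. The Kcnj2 window was rich in CG dinucleotides (18, against a median of 7 over all windows), and that of Atp1b1 held 31. These matches describe the letters and do not show that a factor binds there.

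Of the 7 genes, Kcnj2 fell in KO muscle, 0 rose, 4 did not pass the test and 2 (Scn4a and Kcna7) were read too rarely to be tested (edgeR quasi-likelihood test over 6680 genes, Benjamini-Hochberg adjusted p under 0.05). Over all tested genes 6.26% passed, 3.28% as lower and 2.98% as higher. Kcnj2, Kcnj11 and Fxyd1 among the tested members had no overlap between genotypes, as had 25.8% of all tested genes. At an unadjusted p under 0.05 the count of members was 3, against 1333 of the 6680 genes.

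**Figure D1:**
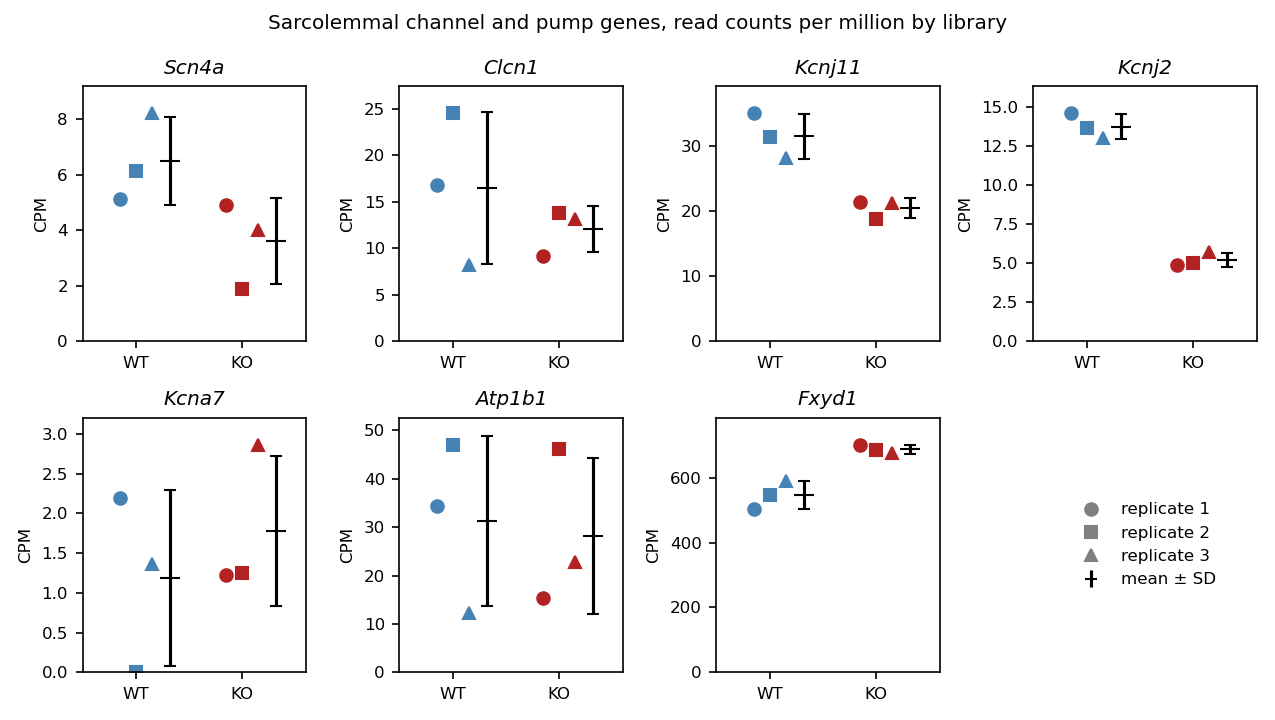
Level of each of the 7 genes in CPM (vertical axis, from 0) in the 3 WT (blue) and 3 KO (red) libraries, with a symbol for each replicate number and bars for mean ± SD. Kcnj2 stood at 13.0 to 14.6 CPM in WT and 4.90 to 5.73 CPM in KO, while Atp1b1 spread over nearly the same range in both genotypes.

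Kcnj2 encodes Kir2.1, an inward rectifier that sets the resting potassium conductance of the fibre and its tubules (ENSMUSG00000041695, GRCm38 chromosome 11, 111066164 to 111076821, plus strand). It was read 20, 20 and 19 times in WT and 8, 8 and 10 times in KO (replicates 1 to 3), or at 14.6, 13.6 and 13.0 CPM against 4.90, 4.997 and 5.73 CPM. Every WT library stood above every KO library. The spread within each genotype was small, but with so few counts a library it does not measure the counting error. Over the pooled counts the ratio of KO to WT was 0.380, with a 95% counting interval of 0.230 to 0.613. The mean went from 13.7 ± 0.798 to 5.21 ± 0.455 CPM (SD, n = 3 each), a log2 fold change of -1.38 (SE 0.31, 95% interval -2.05 to -0.72, edgeR adjusted p = 0.0149). The gene entered the test only through its WT libraries, since the KO libraries were near or below the filter of 10 counts, and with no filter the adjusted p was 0.00874. The call was lost with DESeq2 (log2 fold change -1.41, adjusted p = 0.0738) and, in edgeR, without WT replicate 1 (adjusted p = 0.0517) or WT replicate 2 (adjusted p = 0.0554). Across all 16 alternatives the log2 fold change stayed between -1.46 and -1.15.

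Kcnj12, the gene of the related inward rectifier Kir2.2, did not pass the test. It stood at 21.2, 17.7 and 25.3 CPM in WT and 40.4, 30.0 and 16.0 CPM in KO, so the genotypes overlapped (log2 fold change 0.42, 95% interval -0.24 to 1.08, edgeR adjusted p = 0.498). Of the counts of both genes together, Kcnj2 made up 40.8, 43.5 and 33.9% in WT and 10.8, 14.3 and 26.3% in KO. The mean share was 39.4 ± 4.93% and 17.1 ± 8.14%, with all WT libraries above all KO libraries (p = 0.1 in a two-sided exact permutation test, which cannot go lower with 3 libraries against 3). With counts divided by transcript length (5444 bases for Kcnj2 and 2463 for Kcnj12) the difference between the genotypes went from -22.3 to -14.1 percentage points. The shares rest on 38 to 74 counts a library, and the Wilson 95% interval of the highest KO share, 15.0 to 42.0%, reached into the WT range.

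The 3 genes with the profile most like that of Kcnj2 over the 6 libraries, by Pearson r of log2 CPM, were Mss51 (r = 0.997), Pak1 (r = 0.996) and Ppp1r3a (r = 0.994). Mss51, a muscle gene linked to energy metabolism, had 46, 53 and 47 counts in WT and 0, 0 and 1 in KO, a ratio of KO to WT of 0.00591 over the pooled counts (95% counting interval 0.000149 to 0.0334). Pak1, a kinase of the actin cytoskeleton, went from 55.7 ± 5.66 to 11.6 ± 1.59 CPM. Ppp1r3a, the muscle subunit that targets protein phosphatase 1 to glycogen, went from 479 ± 14.1 to 151 ± 21.3 CPM (SD, n = 3 each). In all, 270 genes had an r above 0.9 with Kcnj2, and a shared profile over 6 libraries of 2 genotypes is a description only.

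Kcnj11 encodes Kir6.2, the pore of the ATP-sensitive potassium (KATP) channel that opens as a fibre runs short of energy (ENSMUSG00000096146, chromosome 7, 46093953 to 46100764, minus strand, 1 exon, 81.4 Mb from Prr14). It had 48, 46 and 41 counts in WT and 35, 30 and 37 in KO, or 35.0, 31.4 and 28.1 CPM against 21.4, 18.7 and 21.2 CPM. The genotypes did not overlap, yet the difference did not pass the test over all genes (log2 fold change -0.62, SE 0.21, 95% interval -1.06 to -0.17, edgeR adjusted p = 0.0986). It passed in none of the 16 alternatives (adjusted p 0.074 to 0.332), all of which gave a negative log2 fold change.

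Abcc9, which encodes the sulfonylurea receptor SUR2 that joins Kir6.2 in the muscle channel, had 40.9, 38.9 and 37.0 CPM in WT and 26.3, 20.6 and 33.8 CPM in KO (log2 fold change -0.52, 95% interval -0.99 to -0.06, edgeR adjusted p = 0.186). It did not pass either, and like Kcnj11 it had no overlap between the genotypes. Within the pair, the Kcnj11 share was 44.7 ± 1.5% in WT and 43.7 ± 4.66% in KO (SD, n = 3 each, p = 0.9 in a two-sided exact permutation test). Reads of both genes come from whole muscle and were not divided by cell type, so this share need not be that of the fibres. The KO minus WT difference of -0.98 percentage points was smaller than the spread between KO libraries, and it ranged with a library left out from -2.95 (without KO replicate 2) to 1.59 (without KO replicate 3).

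**Figure D2:**
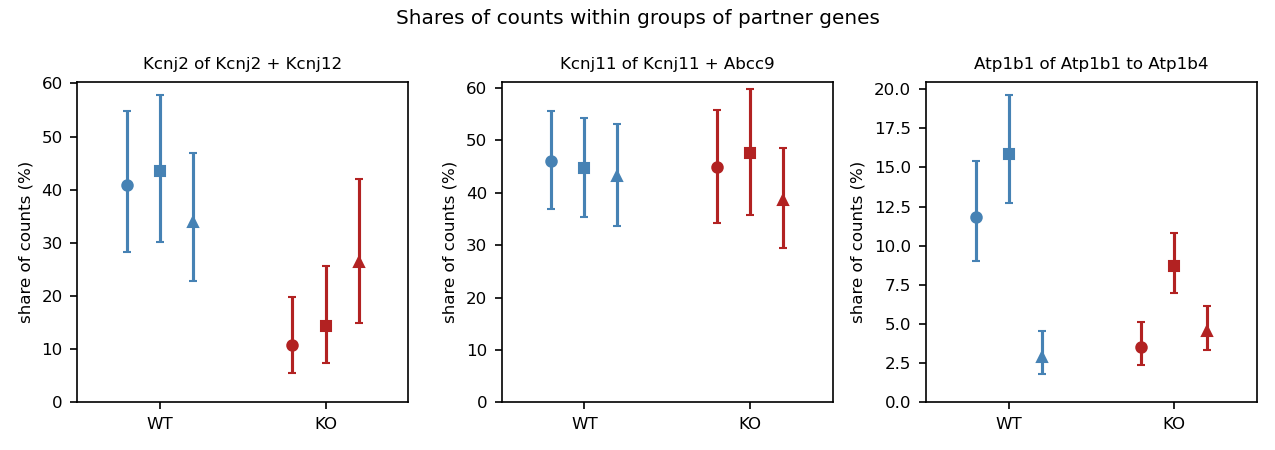
Share of counts in percent (vertical axis, from 0) that Kcnj2 takes of Kcnj2 and Kcnj12, Kcnj11 of Kcnj11 and Abcc9, and Atp1b1 of the 4 sodium pump beta subunit genes, in each WT (blue) and KO (red) library, with Wilson 95% intervals that cover counting error only. The Kcnj2 share lay at 33.9% or above in WT and at 26.3% or below in KO, while the Kcnj11 and Atp1b1 shares overlapped.

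Kcna7 encodes Kv1.7, a voltage-gated potassium channel of the Shaker family (ENSMUSG00000038201, chromosome 7, 45405653 to 45409763, plus strand). It was the least read of the 7, with 3, 0 and 2 counts in WT and 2, 2 and 5 in KO. Over the pooled counts the ratio of KO to WT was 1.55, with a counting interval of 0.468 to 5.90, so no difference was detectable at this depth. Other voltage-gated potassium genes were also rare. Kcnc4 (Kv3.4), read more often, had 11.7, 14.3 and 9.58 CPM in WT and 4.28, 4.37 and 8.02 CPM in KO and did not pass (log2 fold change -1.07 with an SE of 0.36, edgeR adjusted p = 0.0971). Kcna1 had 2 to 5 counts a library in WT and 2 in each KO library. Kcnab1, a beta subunit of Shaker channels, had 5, 7 and 13 counts in WT and 5, 1 and 2 in KO, and its relative Kcnab2 had 3 counts in all.

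Scn4a encodes Nav1.4, the sodium channel that carries the muscle action potential (ENSMUSG00000001027, chromosome 11, 106318592 to 106353288, minus strand). It had 7, 9 and 12 counts in WT and 8, 3 and 7 in KO, or 5.11, 6.13 and 8.22 CPM against 4.90, 1.87 and 4.01 CPM. The lowest WT library and the highest KO library were nearly equal, and the means were 6.49 ± 1.58 and 3.59 ± 1.55 CPM (SD, n = 3 each, p = 0.1 in a two-sided exact permutation test). Over the pooled counts the ratio of KO to WT was 0.555 with a counting interval of 0.289 to 1.04, and a fit with no filter gave a log2 difference of -0.84 (edgeR adjusted p = 0.483). Kcnn3, a potassium channel that denervated muscle is known to switch on, had 1 count, in KO replicate 1. A level below the 1.72 to 2.19 CPM of 3 counts rests on very few reads and could be missed here. In the same libraries Chrna1, the receptor subunit that marks denervation, rose from 13.7 to 271 CPM (log2 fold change 4.30, edgeR adjusted p = 1.01e-05).

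Clcn1 encodes ClC-1, the channel behind most of the resting chloride conductance of muscle (ENSMUSG00000029862, chromosome 6, 42286685 to 42315756, plus strand). It had 23, 36 and 12 counts in WT and 15, 22 and 23 in KO, or 16.8, 24.5 and 8.22 CPM against 9.18, 13.7 and 13.2 CPM. All 3 KO libraries lay within the range of the WT libraries. The log2 fold change was -0.45 (SE 0.35, 95% interval -1.21 to 0.31, edgeR adjusted p = 0.536), and it went from -0.79 without WT replicate 3 to -0.07 without WT replicate 2. Its 3' end overlaps Fam131b on the opposite strand, which had at most 5 counts a library, and the sources used here do not say whether reads were assigned by strand. Clcn3, a chloride-proton exchanger of internal membranes, had 15.1 to 19.0 CPM in WT and 8.12 to 12.2 CPM in KO and did not pass (log2 fold change -0.74, edgeR adjusted p = 0.144).

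Fxyd1 encodes phospholemman, a small membrane protein that binds the sodium pump and tunes its affinity for sodium under control of phosphorylation (ENSMUSG00000036570, chromosome 7, 31051678 to 31057199, minus strand, 96.4 Mb from Prr14). It had the most counts of the 7 genes: 691, 801 and 862 in WT and 1146, 1096 and 1178 in KO. In CPM it stood at 504, 546 and 590 in WT and at 701, 685 and 675 in KO, with every KO library above every WT library. The means were 547 ± 43.0 CPM (WT) and 687 ± 13.3 CPM (KO) (SD, n = 3 each), a ratio of 1.26. The log2 fold change was 0.33 (SE 0.10, 95% interval 0.12 to 0.54, edgeR adjusted p = 0.0661), so it did not pass. It passed with an offset for transcript length (log2 fold change 0.37, edgeR adjusted p = 0.0499) and with unadjusted library totals as the scale (0.57, edgeR adjusted p = 0.00166), on which the median of all tested genes moved from 0.017 to 0.251. Fxyd1 did not pass in any other alternative. Among these were DESeq2 (adjusted p = 0.343) and edgeR without WT replicate 1 (adjusted p = 0.348) or WT replicate 2 (adjusted p = 0.328).

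Atp1b1 encodes the beta 1 subunit, which carries the pump's catalytic subunit to the membrane (ENSMUSG00000026576, chromosome 1, 164437109 to 164458355, minus strand). It had 47, 69 and 18 counts in WT and 25, 74 and 40 in KO, or 34.3, 47.0 and 12.3 CPM against 15.3, 46.2 and 22.9 CPM. The difference between genotypes was far smaller than the spread within each (31.2 ± 17.6 and 28.1 ± 16.1 CPM, SD, n = 3 each; log2 fold change -0.15, 95% interval -1.62 to 1.32, edgeR adjusted p = 0.926). The interval takes in both a 2-fold rise and a 2-fold fall, and the sign turned with library totals (0.07) and without KO replicate 1 (0.14) or WT replicate 2 (0.26). The slow-fibre markers summed to 465, 373 and 81.5 CPM in WT and 371, 1470 and 140 CPM in KO. WT replicate 3 was lowest in both measures and KO replicate 2 was highest in slow-fibre markers and second highest in Atp1b1, but KO replicate 1 had few Atp1b1 reads beside a slow-marker sum near that of WT replicate 2. The part of fibre type in the spread of Atp1b1 was not tested. Its 3' end overlaps Nme7 on the opposite strand, which had at most 8 counts a library.

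**Figure D3:**
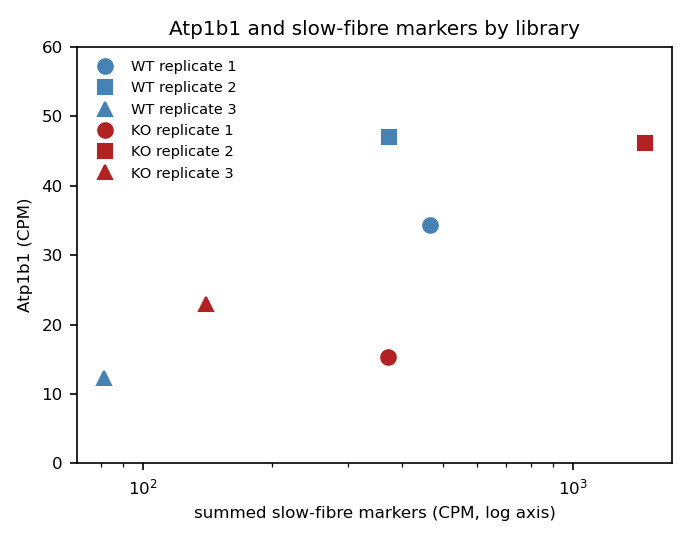
Level of Atp1b1 in CPM (vertical axis, from 0) against the summed CPM of 10 slow-fibre markers (horizontal log axis) in each library, WT in blue and KO in red. WT replicate 3 is lowest on both axes, and KO replicate 1 stands at 15.3 CPM of Atp1b1 beside 371 CPM of slow-fibre markers.

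The other beta subunits were read in the same libraries. Atp1b2, the beta 2 subunit, had 177, 198 and 361 CPM in WT and 351, 415 and 422 CPM in KO and did not pass (log2 fold change 0.69, edgeR adjusted p = 0.222), although it did without WT replicate 3 (1.07, edgeR adjusted p = 0.000306), with no filter (0.68, edgeR adjusted p = 0.00124) and with library totals (0.94, edgeR adjusted p = 0.0231). Atp1b3, the beta 3 subunit, did not pass, at 59.9 ± 14.5 and 60.3 ± 3.25 CPM (log2 fold change 0.01, 95% interval -0.38 to 0.40). The Atp1b1 share of beta subunit counts was 11.8, 15.9 and 2.90% in WT and 3.53, 8.72 and 4.54% in KO (p = 0.4 in a two-sided exact permutation test). Fxyd6, another regulator of the pump, had 54.8 ± 20.2 and 53.8 ± 21.1 CPM (SD, n = 3 each).

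Beyond the members, 112 further genes of sodium, potassium and chloride transport were listed, of which 87 had a count and 34 were tested. Ano5 fell, 1 gene rose and 32 did not pass, against 3.28% and 2.98% of all tested genes lower and higher. The genotypes did not overlap for 10 of the 34 (29.4%, against 25.8% of all tested genes), and their median log2 fold change was 0.03, against 0.02 for all tested genes. Ano5, an anoctamin of muscle membranes whose loss causes a limb girdle dystrophy, fell from 47.4 ± 4.53 to 19.2 ± 2.58 CPM (SD, n = 3 each; log2 fold change -1.30 with an SE of 0.20, edgeR adjusted p = 0.00115) and passed in all 16 alternatives. By role, 1 of 8 tested genes listed as chloride channels passed, namely Ano5. That list takes in anoctamins and the exchanger gene Clcn3 and leaves out the member Clcn1. The Ano5 call therefore does not speak for the chloride channels of the sarcolemma. The counts were 0 of 3 for inward rectifier and KATP genes, 0 of 3 for voltage-gated potassium genes and 0 of 6 for carriers and kinases. All 15 calcium-activated and two-pore potassium genes were too low to be tested. Among the carriers Slc12a2, the sodium, potassium and chloride cotransporter, had a log2 fold change of -0.18 (95% interval -0.86 to 0.49), and the sodium-calcium exchanger gene Slc8a3 had 5 counts in each genotype. The anchor Ank3, which holds sodium channels at the synapse, had a log2 fold change of 0.19 (95% interval -0.18 to 0.57).

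**Figure D4:**
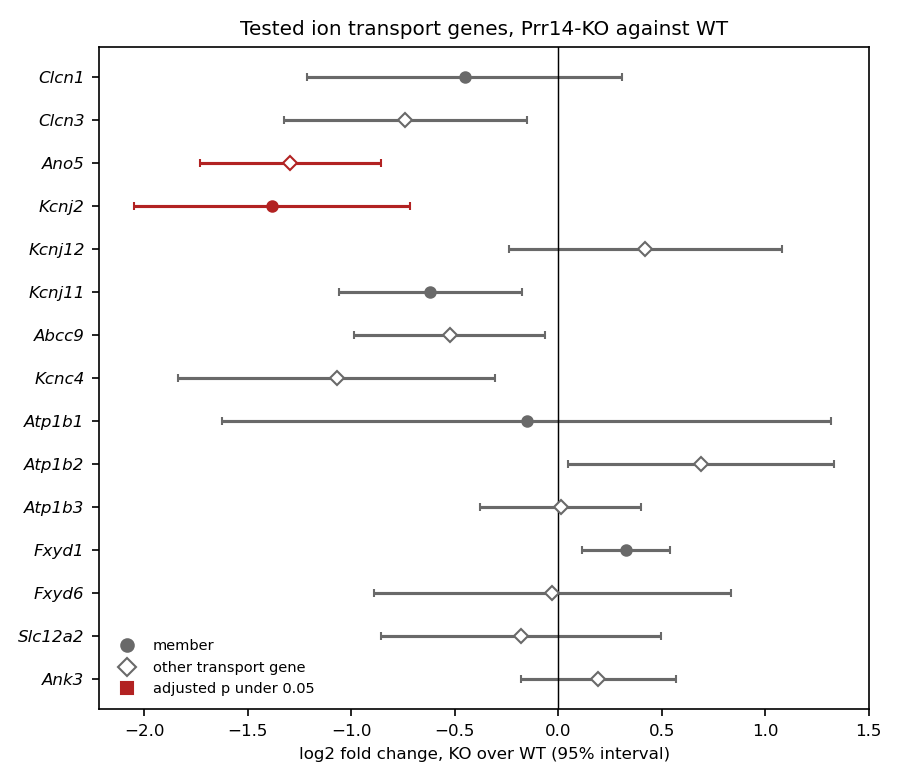
Log2 fold change of KO over WT (horizontal axis, bars show the 95% interval) for the tested members (filled circles) and for partner genes of sodium, potassium and chloride transport (open diamonds), with genes past the adjusted threshold in red. Kcnj2 (-1.38) and Ano5 (-1.30) lie to the left of 0, with intervals that do not reach it. The intervals are not adjusted for the number of genes tested. Those of Kcnj11, Abcc9, Clcn3, Kcnc4, Fxyd1 and Atp1b2 do not reach 0 either, although these genes did not pass.

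Reads of long transcripts depend on RNA quality, so fold changes were set beside transcript length. Across the 6680 tested genes the Spearman correlation of log2 fold change with length was -0.02, a description over genes that are not independent. Kcnj2, with a transcript of 5444 bases, fell by 1.38 on the log2 scale where genes of 4763 to 6360 bases had a median of 0.02. Of the genes in that range 5.09% passed as lower, and of those of 6362 bases or more, which include Ano5 at 7785 bases, 5.24% did, against 1.8 to 3.59% in the 8 shorter classes of about equal size. The part of transcript length in the lower calls was not tested beyond the offset that follows. A fit with a trend in length as an offset gave -1.38 (edgeR adjusted p = 0.0151). Fxyd1, at 620 bases, lay among the shortest tested genes, up to 1126 bases, whose median was -0.04.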

How the data were processed

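Per the labels' protocols, RNA was made into cDNA by template switching, amplified by PCR and read on a nanopore PromethION. The submitters' processing notes name minimap2, DESeq2 1.6.3 and GRCm38; the sources used here do not give the read counter, annotation release or use of strand. The authors deposited whole-number read counts per Ensembl gene, not normalized, per the file headers. Symbols were matched by identifier (22022 of 22036), and positions and longest basic transcripts come from GENCODE on GRCm38. The test used edgeR 4.0.16 under R 4.3.3 (filterByExpr with minimum count 10 and total 15, TMM, robust quasi-likelihood test, Benjamini-Hochberg threshold 0.05), and an SE is the log2 fold change divided by the root of F. Alternatives were other scalings and filters, DESeq2 1.42.0, limma 3.58.1 voom, robust=FALSE, a transcript length offset and leaving out each library. On simulated counts for KO against WT (6783 genes tested), 24.4% of 1.5-fold, 65.2% of 2-fold and 95.7% of 4-fold changes were called, with 12 false among 141 calls. Counting intervals cover counting error only, since reads carry no molecular identifiers. Pairs of libraries within a genotype differed by more than sampling noise (chi-square per degree of freedom 2.19 to 5.35).

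The members and lists were chosen with earlier results of these data known. Named genes are the 7 members, transport genes past the threshold, 20 partner genes, the 3 genes most like each member past the threshold, and Prr14, Myh4, Myh7 and Chrna1 as checks. Protein sequences were not used here, and several genes under this rule are not reported here.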

Additional observations from a re-analysis of the deposited data

How the results depend on the processing

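No paired analysis was possible because the library titles of the genotypes share fewer than 2 numbers. Genes past the threshold numbered 199 higher and 219 lower, 653 and 148 with library totals, 344 and 362 with no filter, and 83 to 179 and 154 to 187 with a library left out. Of the 7 members, 0 were lower with DESeq2 (Kcnj2 -1.41), and 0 to 1 with a library left out, Kcnj2 ranging from -1.46 to -1.34. The number of members higher was 1 with library totals and 1 with the length offset: Fxyd1, at 0.57 and 0.37. In every other alternative no member was higher. Atp1b1 turned to 0.067 with library totals and ranged from -0.70 to 0.26 with a library left out. Of the other transport genes 4 were higher with library totals, 4 higher and 3 lower with no filter, and 0 to 2 higher and 1 to 2 lower with a library left out. The KO minus WT difference in the Kcnj2 share was -22.3 percentage points, -14.1 with counts divided by transcript length, and -26.9 to -19.1 with a library left out. Kcnj11 and Clcn1 kept a negative log2 fold change and did not pass in any of the 16 alternatives each. The causes were not tested. Depth limits Scn4a and Kcna7 most, and changes under 2-fold were often missed in simulated counts.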

Other observations

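Some further transport genes differed in counts between the genotypes, and they were chosen here after their values were seen. All of them except Scn4b were too rare for the main test. With no filter, 344 of 14292 genes passed as higher and 362 as lower. Of the transport genes beyond the members, 4 passed as higher and 3 as lower in that fit. The rare genes were picked for their differences and rest on few counts, so their p-values and intervals are descriptions only. Atp1b4, a muscle protein of the pump's beta family known from the nuclear envelope, had 2, 0 and 0 counts in WT and 7, 12 and 6 in KO, a pooled ratio of KO to WT of 10.8 (95% counting interval 2.69 to 94.0; edgeR adjusted p = 0.00351 with no filter). Kcna6, a Shaker-type potassium channel, had 1, 0 and 1 counts in WT and 11, 7 and 5 in KO, a ratio of 9.92 (2.45 to 86.8; edgeR adjusted p = 0.00778 with no filter). Kcnq5, a potassium channel of the M-current family, had 10, 3 and 8 counts in WT and 0, 1 and 2 in KO (edgeR adjusted p = 0.00744 with no filter). Slc4a4, a sodium bicarbonate cotransporter, had 10, 11 and 6 counts in WT and 7, 0 and 1 in KO, with overlap between the genotypes (edgeR adjusted p = 0.027 with no filter). Scn4b, a sodium channel beta subunit, had 56.9 to 78.4 CPM in WT and 43.4 to 53.1 CPM in KO and did not pass (log2 fold change -0.51, edgeR adjusted p = 0.109).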
